A study of Mus musculus with 6 samples.

Results

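The transcripts described here belong to the ATF4 stress response: the transcription factor Atf4 and its partners and feedback genes, the enzymes and transporters that supply amino acids, the cytosolic tRNA synthetases, and the Xbp1 branch of the endoplasmic reticulum stress response. Members were chosen by name, as all probe sets whose platform gene symbol was 1 of 34 listed symbols. In all, 33 symbols had a probe set, with 66 probe sets among the 22690 on the array. Of these genes, 32 entered the test, among 9295 genes in all. Mars, the methionine synthetase gene, had no probe set in the table used. Slc7a1, a transporter of cationic amino acids, had a mean of 4.67 over the 6 arrays, below the dimmest tested gene (4.72), and was left out.

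The study compared activated CD4 T cells of miR-155 knockout mice (KO, 3 arrays) and wild-type mice (WT, 3 arrays), both of strain C57BL/6, and asked how transcripts differ without this microRNA. Cells from spleen and lymph nodes were isolated on CD4 magnetic beads and cultured over 3 days under CD3 plus CD28 antibody, each at 1 µg/mL, plus IL-2 (20 U/mL), a T cell growth factor. Every group thus shared the same stimulation, and there was no unstimulated or nutrient-starved group. The knockout line is credited in the series text to an earlier report and is not described further; the labels name no Cre driver, and the age of the mice is not analysed here. All values are log2 RMA values, differences are KO minus WT on that scale, and "SD, n = 3" is over the 3 arrays of a genotype.

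When a cell runs short of amino acids, or misfolded protein collects in its endoplasmic reticulum, kinases phosphorylate the translation factor eIF2. Protein synthesis as a whole then slows, while Atf4 messenger RNA is translated more. ATF4, paired with C/EBP proteins, binds composite C/EBP-ATF response elements and switches on genes for amino acid synthesis, uptake and tRNA charging, together with feedback genes that end the response. Activated T cells also use this programme for growth, since they need serine, glycine and one-carbon units for proteins and nucleotides. The IRE1 protein, encoded by Ern1, starts a parallel arm by splicing Xbp1 messenger RNA.

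The composite element can be seen in the promoters of several members, and 6 genes with a match lying before the start site are shown because they carry the sequence through which this gene set is usually defined. Promoter windows of 250 bases before to 50 bases after each start were taken from RefSeq on GRCm38.p6, and 27 of the members with a probe set had an entry. The searched core was TGATGNAA on both strands. Windows of 30 bases are printed on the strand of the gene with the match in capitals, which reads as the reverse complement where the match lies on the other strand. Coordinates follow the order of printing: Gars (+) chr6:55037960-55037989, Tars (-) chr15:11399659-11399688, Asns (-) chr6:7693214-7693243, Chac1 (+) chr2:119351038-119351067, Vldlr (+) chr19:27216809-27216838, and Slc7a11 (-) chr3:50443661-50443690 and chr3:50443642-50443671.
Gars: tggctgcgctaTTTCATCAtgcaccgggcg
Tars: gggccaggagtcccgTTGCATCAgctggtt
Asns: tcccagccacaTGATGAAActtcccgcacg
Chac1: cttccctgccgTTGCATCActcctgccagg
Vldlr: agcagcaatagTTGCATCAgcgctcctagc
Slc7a11, site 1: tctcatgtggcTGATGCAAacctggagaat
Slc7a11, site 2: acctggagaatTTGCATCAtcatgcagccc

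The matches of Gars and Tars began 30 and 15 bases before the start, those of Asns, Chac1 and Vldlr 23, 193 and 200 bases before it, and those of Slc7a11 66 and 47 bases before it. The 2 windows of Slc7a11 overlap. Just after the start, a match began 7 bases in for Iars, 3 for Yars and 14 for Trib3. Aars also had matches, on both sides of its start, and its sequence is not printed. In all, 10 of 27 member genes (37%) had a match, against 203 of 7534 tested genes with an entry (2.69%) and 1219 of all 27025 genes with an entry (4.51%). Since this gene set is usually defined through the element, the higher share among members is not an independent result. Among the tRNA synthetases 5 of 7 had one, and among the stress genes 3 of 9. A match is a run of letters and not evidence of binding, and no match says only that these letters are not in this window. The cyclic AMP response element TGACGTCA was found in 1 member, Ppp1r15a, beginning 12 bases before its start (3.42% of tested genes had one). The XBP1 core TGACGTGG was found in 0 of the 27 (1.09% of tested genes).

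**Figure D1:**
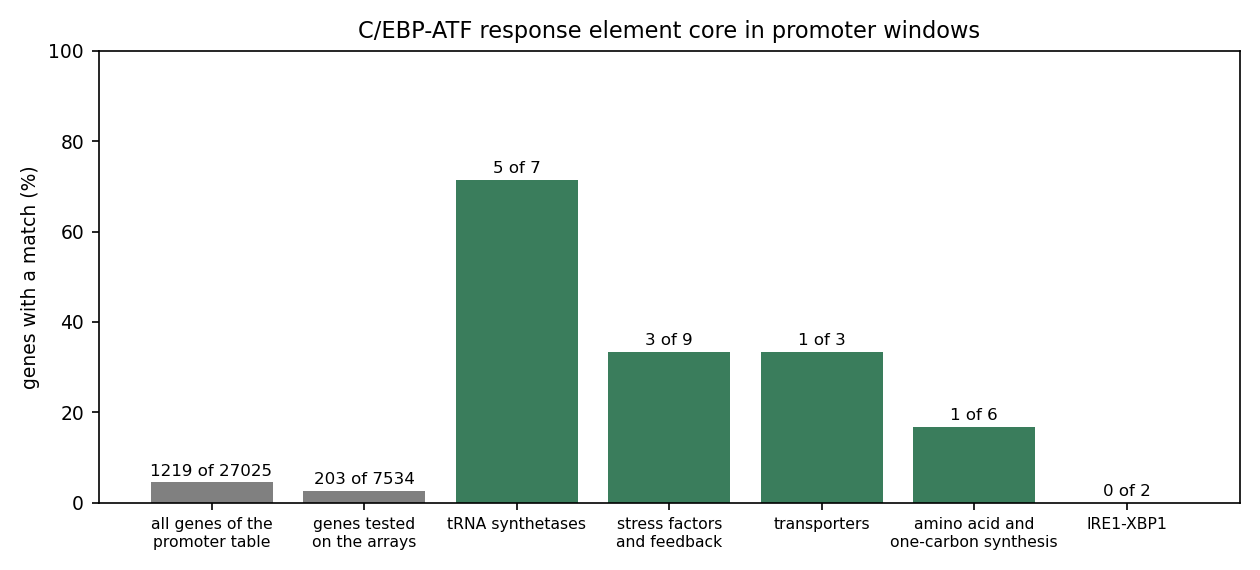
Share of genes (%, vertical axis from 0) whose promoter window holds the C/EBP-ATF response element core on either strand, for all genes of the table, for the genes tested on the arrays and for the members by role, with counts above the bars. The synthetases stand at 5 of 7, against 203 of 7534 tested genes.

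The arrays were checked first. Mir155hg, the host transcript of miR-155, measured 3.51, 3.89 and 4.45 in KO and 7.69, 6.59 and 8.21 in WT, each on the side its label gives, though the extent of the deletion in the locus is not stated in the labels. Cd4 measured between 8.83 and 9.25 and Cd3e between 9.86 and 10.88, while Cd8a measured at most 6.10. Other markers of CD8 T cells were brighter, Cd8b1 reaching 7.73 and Crtam 8.25, and of B cells Cd79a reached 6.24, Cd22 7.39, Cd79b 7.93 and Ms4a1 8.22, so a share of such cells in the cultures was not tested. By list, the median difference was 0.21 for 7 CD4 T cell markers tested, 0.06 for 4 of CD8 T cells, 0.01 for 4 of B cells, 0.12 for 2 of NK cells, 0.23 for 2 of macrophages, 0.09 for 2 of dendritic cells and -0.0073 for 2 of red cells and platelets, with 0 past the test, and no neutrophil marker was bright enough to test. Xist was at 13.35 and 13.08 on the replicate 1 arrays, which had low Y-linked values (Eif2s3y at 3.50 and 3.44). On the replicate 2 arrays Xist was at 5.94 and 5.66 and Eif2s3y at 10.41 and 10.51. Both replicate 3 arrays carried Xist (12.59 and 12.64) and Eif2s3y (10.05 and 10.21), which goes against 1 mouse per array, so the group medians without them stand with the alternatives. Each of these 3 sex marker states held 1 KO and 1 WT array, so the marker state did not run with genotype, and a difference within a state is 1 array against 1 with no test. KO replicate 1 stood farthest from the other arrays, with a spread of deviations over all tested genes of 0.47, against 0.22 to 0.36. In whole-culture RNA, fewer cells of a type and less RNA per cell cannot be told apart.

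No member passed the test. Of the 32 tested, 0 had a limma adjusted p under 0.05 (0 of 9295 genes, 0.00%), the smallest adjusted p among them being 0.631. Weighting the arrays by their estimated quality, an alternative that rests mainly on 1 array per genotype, called 16 members and 3575 genes. At an unadjusted limma p under 0.05 there were 2, Ppp1r15a and Xbp1, both higher in KO, where 7.43% of all genes had one (3.57% higher and 3.86% lower). The same 2 genes were the only members without overlap between the genotypes, against 12.8% of all genes in either direction and 5.86% higher in KO. These shares are near or below the background over both directions, so the counts give no result about the members as a set. Within all 3 sex marker states KO was above WT for 3 members (19.6% of all genes) and below it for 14 (24.6% of all genes). A difference of at least 0.5 in size was seen in 5 members (Ddit3, Ppp1r15a, Asns, Phgdh and Shmt2) and in 11.1% of all genes. The members divided by role, and 2 arrays carried most of their highest values. KO replicate 1 was the highest array for 15 of the 32 and WT replicate 1 for 14, against 25.8% and 23.4% of all genes.

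**Figure D2:**
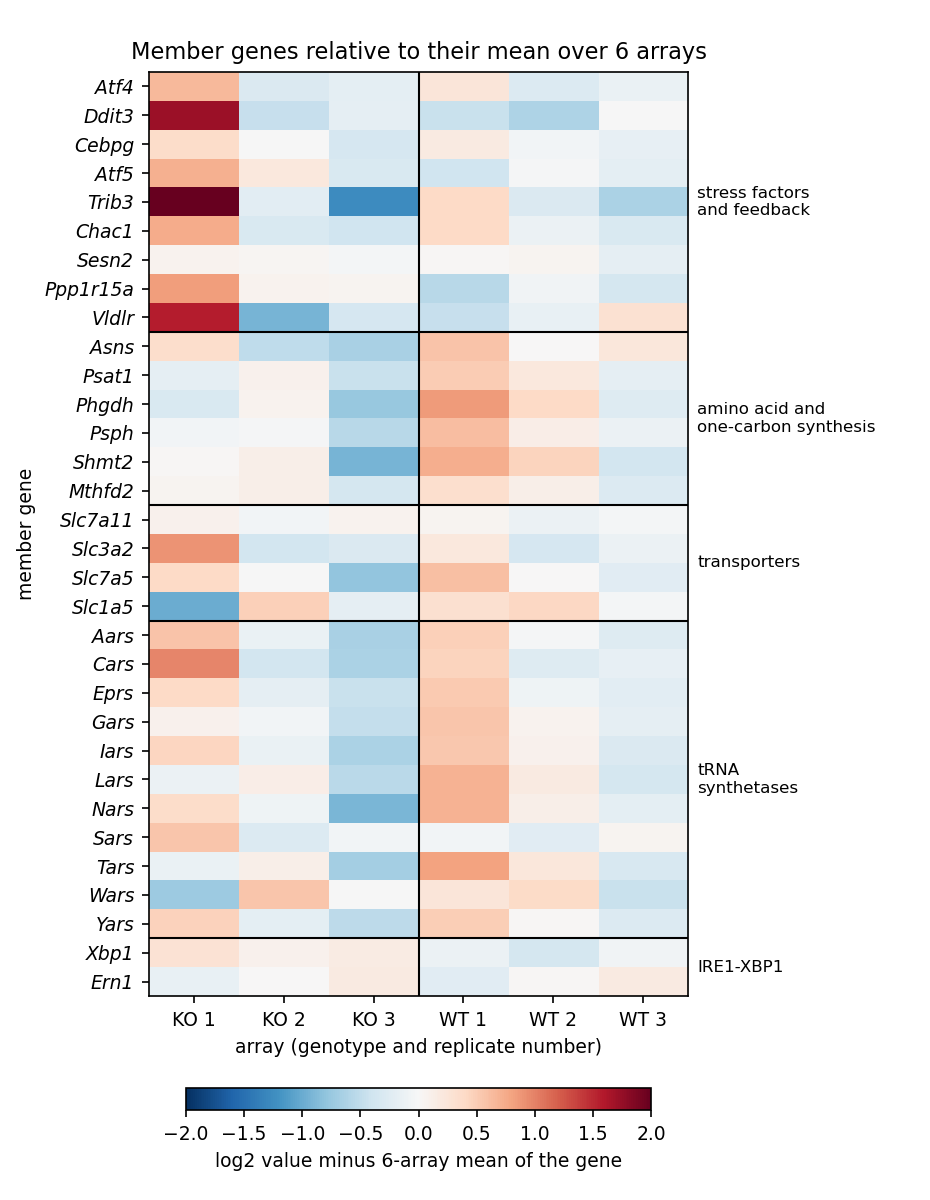
Each row is a member gene and each column an array; colour is the log2 value minus the mean of that gene over the 6 arrays. KO replicate 1 is the highest array in all 9 rows of the stress group, and WT replicate 1 in all 6 rows of amino acid and one-carbon synthesis.

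The stress factors and feedback genes had higher means in KO in 9 of 9 cases, with a median difference of 0.20, where 49.2% of all genes were higher and the median was -0.0036. The mean deviation of the group on KO replicate 1 was 0.96, and on the other arrays it lay between -0.33 and -0.07. KO replicate 1 was the highest of the 6 arrays for each of the 9 genes. Without that array 4 of the 9 were higher and the median was -0.15 (47.6% of all genes higher, median -0.012), and without both replicate 3 arrays the median was 0.62. On the same array 13 genes of the HIF response, the programme of low oxygen, deviated by 0.84 (other arrays -0.35 to -0.04), and 11 proliferation genes by -0.85 (other arrays -0.08 to 0.31). Over all arrays the HIF list had a median of 0.16, with Vegfa, a vessel growth factor gene, at 0.65 and Ddit4, an mTORC1 inhibitor gene, at 0.52, and 0 of its 13 genes passed the test. Without KO replicate 1 that median was -0.20, with 9 of 13 lower, and Vegfa was at 0.26. Their part in the stress gene values was not tested.

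Atf4 itself measured 12.23, 11.29 and 11.38 in KO and 11.82, 11.30 and 11.45 in WT. The groups overlapped, and both replicate 1 arrays were above the other 4. The difference was 0.11 ± 0.28 (SE), with means of 11.63 ± 0.52 in KO and 11.53 ± 0.27 in WT (SD, n = 3), and -0.19 without KO replicate 1. A second bright probe set differed by 0.31 and a dim one, at a mean near 5.5, by -0.04. Because ATF4 is controlled mainly through translation, its transcript need not follow its activity.

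Ddit3, which encodes the pro-apoptotic factor CHOP, measured 11.04, 8.88 and 9.16 in KO and 8.90, 8.71 and 9.33 in WT. Only KO replicate 1 was high, and the other KO arrays lay within the WT range. The difference was 0.71 ± 0.56 (SE; limma adjusted p = 0.676; exact permutation p = 0.6) with all arrays and 0.04 without KO replicate 1. Trib3, a pseudokinase that dampens the response, had the widest range of all members, 3.25 log2 units. It measured 9.86, 7.65 and 6.61 in KO and 8.26, 7.57 and 7.24 in WT, so that KO held both the highest and the lowest array. Its difference of 0.35 ± 0.79 (SE) became -0.56 without KO replicate 1.

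Vldlr, a lipoprotein receptor gene induced by ATF4 and also reported to respond to low oxygen, measured 11.05, 8.55 and 9.14 in KO and 9.03, 9.33 and 9.78 in WT. KO replicate 1 was 1.89 above the mean of the other 5 arrays, and KO replicate 2 was the lowest array. The difference was 0.20 ± 0.62 (SE) and -0.54 without KO replicate 1, and its 4 probe sets differed by -0.09 to 0.42. Chac1, which encodes an enzyme that breaks down glutathione, differed by 0.02 and by -0.35 without that array. Atf5, a related factor, differed by 0.41 and by 0.16 without it. Cebpg, a dimer partner of ATF4, differed by 0.03 and by -0.15 without it, and Sesn2, a brake on mTORC1, by 0.06 over a range of 0.25.

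Ppp1r15a was the exception in this group. It encodes GADD34, the subunit that directs protein phosphatase 1 to eIF2 and so ends the response. It measured 9.67, 8.91 and 8.89 in KO and 8.28, 8.77 and 8.49 in WT, and the genotypes did not overlap. Its difference was 0.65 ± 0.25 (SE), or 1.56-fold higher in KO (limma adjusted p = 0.631; exact permutation p = 0.1, the smallest that 3 against 3 arrays can give). It was 0.39 without KO replicate 1, a change of over 1.5 times, and KO was higher within each sex marker state, by 1.39, 0.14 and 0.40.

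**Figure D3:**
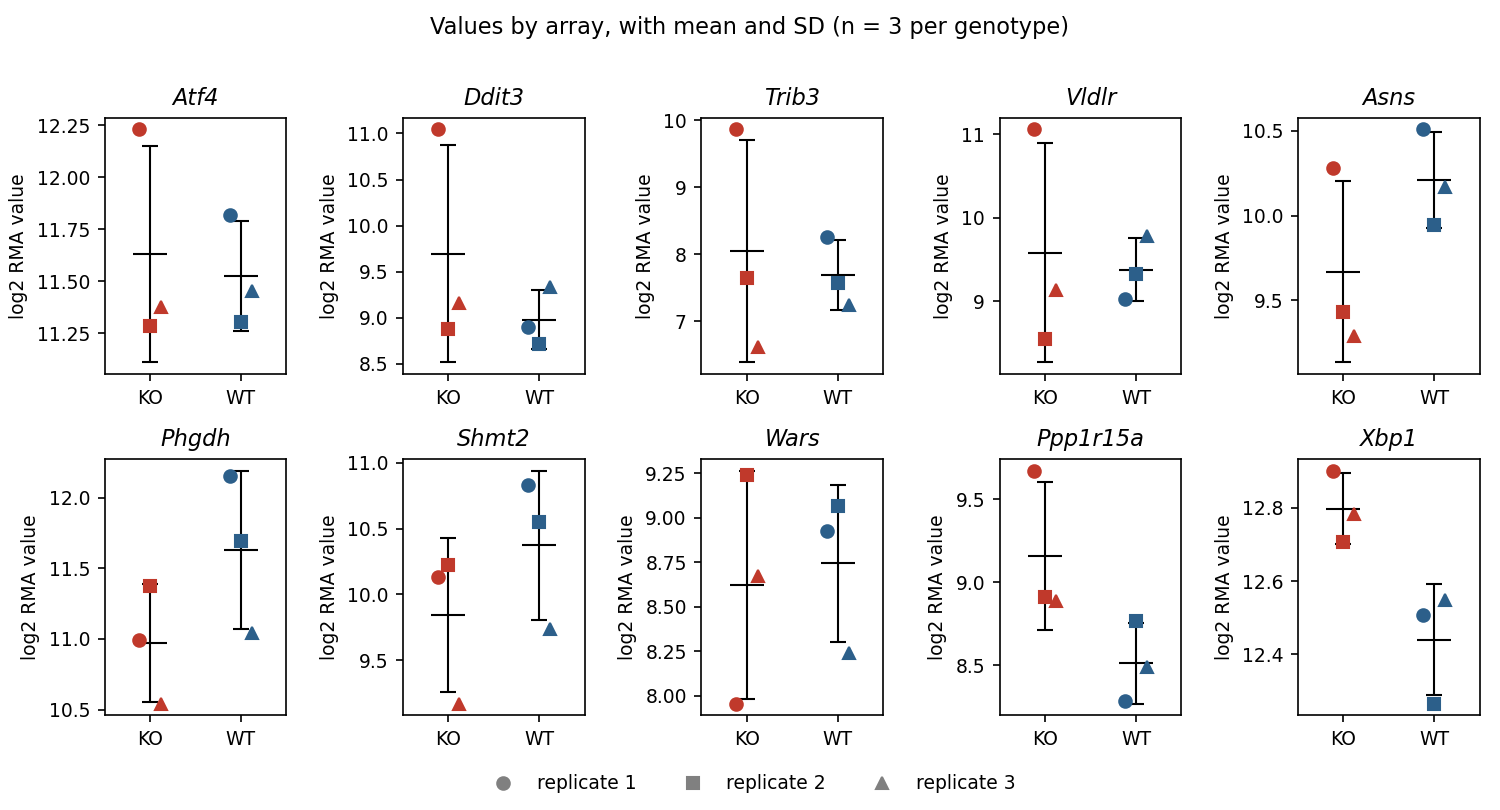
Log2 RMA values of 10 members on each array, with circles, squares and triangles for replicates 1, 2 and 3; the horizontal bar is the mean and the error bar the SD (n = 3). KO replicate 1 stands alone at the top for Ddit3, Trib3 and Vldlr, while Ppp1r15a and Xbp1 show no overlap between KO and WT.

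The genes of amino acid and one-carbon synthesis differed in the other direction. All 6 had lower means in KO, with a median difference of -0.47, where 50.8% of all genes were lower, and none passed the test (smallest limma adjusted p = 0.631). The 6 remained lower without KO replicate 1, with a median of -0.58. KO was below WT within each of the 3 sex marker states for 6 of 6, against 24.6% of all genes, the median differences being -0.68, -0.23 and -0.47 for replicates 1, 2 and 3. Mthfd2 was counted there with -0.28, -0.0017 and -0.07, the value for replicate 2 being close to no difference. The genotypes nevertheless overlapped in each gene: WT replicate 3 was low in 5 of the 6, and for Asns KO replicate 1 was high. WT replicate 1 was the highest array and KO replicate 3 the lowest for all 6, and the median difference was -0.23 without KO replicate 3 and -0.26 without WT replicate 1. Proliferation genes were lower in KO as well, 11 of 11 with a median of -0.62 (-0.32 without KO replicate 1) and 0 past the test. Bub1 at -0.37 and Aurkb at -0.49 had the smallest p. In 6 of the 11, KO was lower without overlap (6.92% of all genes). An unadjusted limma p under 0.05 was seen in 3, all lower (3.86% of all genes). The part of proliferation in the synthesis gene values was not tested.

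Phgdh, the first enzyme of serine synthesis, showed the largest difference of the group over all 6 arrays; without KO replicate 1 that of Asns was larger. It measured 10.99, 11.38 and 10.54 in KO and 12.16, 11.70 and 11.04 in WT. The means were 10.97 ± 0.42 in KO and 11.63 ± 0.56 in WT (SD, n = 3), which is -0.66 ± 0.33 (SE) and 1.58-fold below WT (limma adjusted p = 0.631). Within the sex marker states it differed by -1.17, -0.32 and -0.50, and its 4 probe sets differed by -0.69 to -0.55. Without WT replicate 1 the difference was -0.40. A further 2 probe sets shared between Phgdh and another gene were not used.

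Asns, the asparagine synthetase and a classic ATF4 target, measured 10.28, 9.43 and 9.29 in KO and 10.51, 9.95 and 10.17 in WT. KO replicates 2 and 3 lay below all WT arrays and KO replicate 1 lay among them. The difference was -0.54 ± 0.29 (SE; limma adjusted p = 0.631) and -0.84 without KO replicate 1, over 1.5 times as large, -0.35 without KO replicate 3, and a second probe set differed by -0.31. Shmt2, the mitochondrial enzyme that converts serine to glycine, measured 10.13, 10.23 and 9.17 in KO and 10.83, 10.55 and 9.73 in WT. Both replicate 3 arrays were low, and the difference was -0.53 ± 0.38 (SE), with 4 probe sets between -0.53 and -0.16. It was -0.19 without KO replicate 3, -0.30 without WT replicate 1 and -0.85 without WT replicate 3.

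The rest of the serine pathway lay in the same direction. Psph, which performs the last step of serine synthesis, differed by -0.42 ± 0.24 (SE), and Psat1, the enzyme between it and Phgdh, by -0.35 ± 0.22. Mthfd2, a mitochondrial folate enzyme of proliferating cells, differed by -0.12 ± 0.20 and by 0.02 without KO replicate 3. On KO replicate 1, Asns was 0.41 above the mean of the other arrays, Psat1 at -0.21 and Phgdh at -0.37. Of the stress genes, Ddit3 and Trib3 were 2.05 and 2.39 above it, but Cebpg was at 0.45 and Sesn2 at 0.09. On that array Sesn2 was thus the only stress gene within the range of the synthesis genes, from -0.37 (Phgdh) to 0.41 (Asns). The other stress genes lay above that range, Cebpg only narrowly.

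Among the amino acid transporters 2 of the 4 tested had higher and 2 lower means in KO, with a median of -0.10. Slc3a2 and Slc7a5 encode the 2 chains of the large neutral amino acid exchanger. Slc3a2, the heavy chain, measured 11.22, 9.96 and 10.03 in KO and 10.53, 9.99 and 10.20 in WT, and differed by 0.16 ± 0.36 (SE) and by -0.24 without KO replicate 1. Slc7a5, the light chain, measured 10.29, 9.89 and 9.11 in KO and 10.50, 9.90 and 9.67 in WT, and differed by -0.26 ± 0.35 and by -0.52 without KO replicate 1. On KO replicate 1 the heavy chain was 1.08 and the light chain 0.48 above the mean of the other arrays. Slc1a5, a glutamine carrier, had its lowest value on KO replicate 1, at -1.19 against the mean of the other arrays. It measured 9.09, 10.55 and 9.89 in KO and 10.40, 10.49 and 10.04 in WT, and its difference of -0.47 ± 0.36 was -0.09 without that array. Slc7a11, the cystine carrier, lay between 4.62 and 4.82 on every array, close to the dimmest tested gene, so that its difference of 0.06 cannot be read in spite of its 2 promoter matches.

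**Figure D4:**
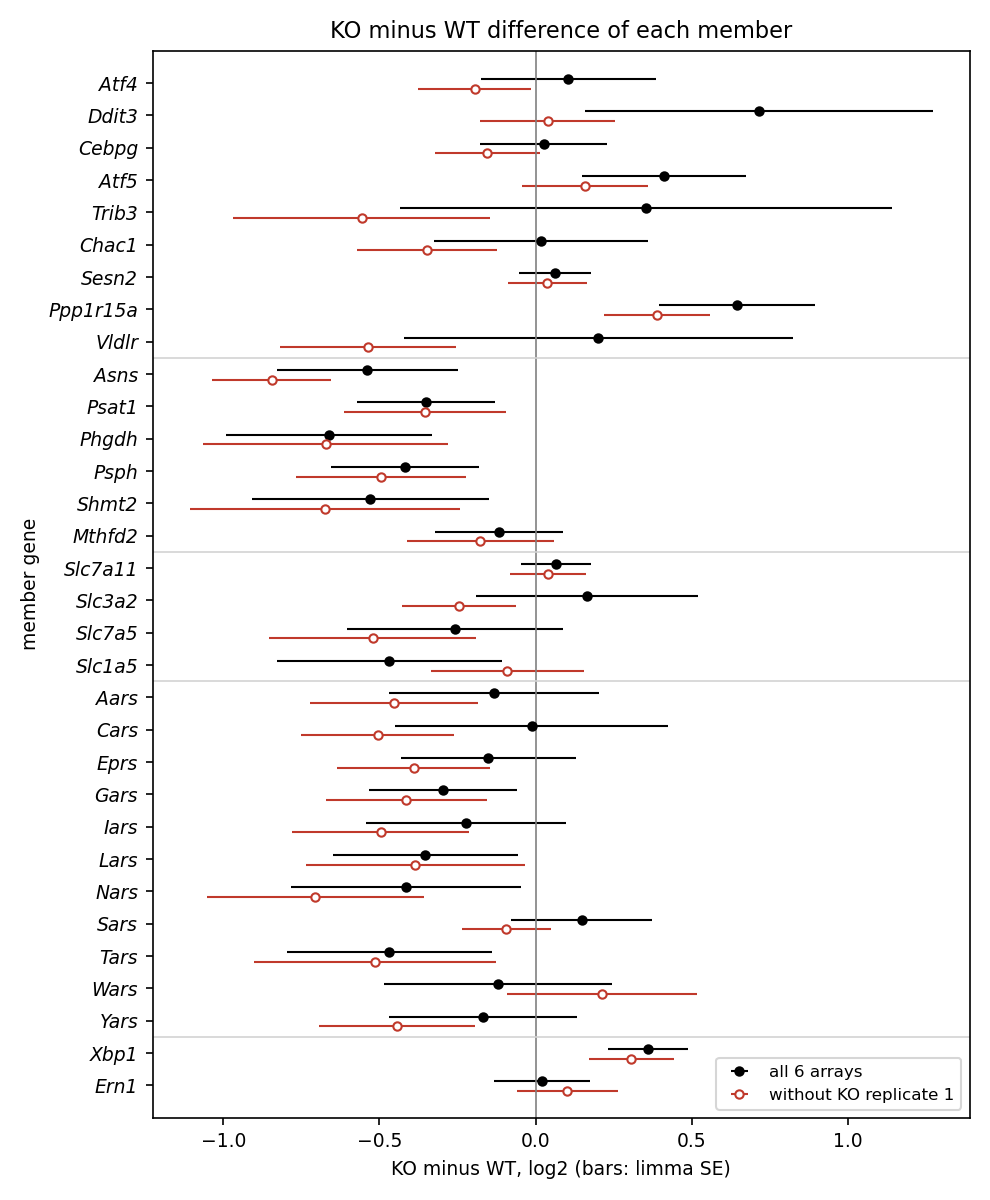
KO minus WT difference (log2, horizontal axis) of each tested member with its limma SE, filled for all 6 arrays and open without KO replicate 1. The stress genes move toward or below 0 without that array, while the synthesis genes keep negative differences.

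Of the 11 tested cytosolic tRNA synthetases, which load amino acids onto their tRNAs, 10 had lower means in KO and 1, Sars, a higher one, with a median difference of -0.17. The group's deviation was 0.26, -0.06 and -0.51 in KO and 0.49, 0.05 and -0.24 in WT, so the genotypes overlapped widely. Both replicate 1 arrays, whose Y-linked values were low, were high in each genotype, and both replicate 3 arrays were low. Within the sex marker states 7 of 11 were lower in KO in all 3 (24.6% of all genes), with medians of -0.11, -0.11 and -0.31. The median was -0.44 without KO replicate 1, 0.03 without KO replicate 3 and -0.01 without WT replicate 1, so that its sign rested on single arrays. Nars (-0.41 ± 0.37, SE), Tars (-0.47 ± 0.33), Lars (-0.35 ± 0.30) and Gars (-0.30 ± 0.24) had the largest differences over all 6 arrays, none past the test (limma adjusted p of 0.650 to 0.701). Nars was at -0.70 without KO replicate 1, -0.06 without KO replicate 3 and -0.17 without WT replicate 1. Without KO replicate 3 or WT replicate 1, Tars was at -0.25 and -0.18, Lars at -0.17 and -0.09, and Gars at -0.13 and -0.09.

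The synthetases were not uniform on KO replicate 1. Cars, the cysteine enzyme, measured 9.23, 7.89 and 7.61 in KO and 8.69, 7.99 and 8.08 in WT, and KO replicate 1 was 1.18 above the mean of the other arrays. Its difference was -0.01 ± 0.44 (SE; limma adjusted p = 0.995), -0.51 without that array and 0.12 in a second probe set. Without KO replicate 1, Aars differed by -0.45 (-0.13 with it), Iars by -0.50 (-0.22), Yars by -0.44 (-0.17), Eprs by -0.39 (-0.15) and Sars by -0.09 (0.15). Aars and Sars, for alanine and serine, were 0.69 and 0.67 above it on that array, and Yars, Iars, Eprs and Nars between 0.45 and 0.56. Gars was 0.11 above it, whereas Lars and Tars were at -0.13 and -0.17.

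Wars, the tryptophan enzyme, is also induced by interferon gamma and followed another order. It measured 7.96, 9.24 and 8.67 in KO and 8.92, 9.07 and 8.24 in WT, and KO replicate 1 was its lowest array, at -0.87 against the mean of the other 5. The difference was -0.12 ± 0.36 (SE) and 0.21 without KO replicate 1, and its 4 probe sets lay between -0.34 and -0.12. The deviations of 12 interferon gamma response genes were -0.24, 0.17 and -0.07 in KO and 0.18, 0.18 and -0.23 in WT. Their part in the Wars values was not tested. In that list Psmb9, an immunoproteasome subunit gene, differed by -0.39 and Ido1, which encodes a tryptophan-degrading enzyme, by 0.97, both with an unadjusted limma p under 0.05 and not past the adjusted test.

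The 7 further cytosolic synthetases tested were all lower in KO (median -0.28, 0 past the test), Hars at -0.51 and Farsb at -0.47 having the smallest p, and 6 of 7 were lower in each sex marker state. Of 8 mitochondrial synthetases 5 were lower (median -0.20), with Pars2 at -0.33 and Tars2 at 0.45 (0.24 without KO replicate 1). Of the scaffold proteins of the synthetase complex, Eef1e1 differed by -0.74 ± 0.34 (SE), measuring 9.42, 10.40 and 9.82 in KO and 11.11, 10.70 and 10.07 in WT, and Aimp2 by -0.23. None of these passed the test over all genes.

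**Figure D5:**
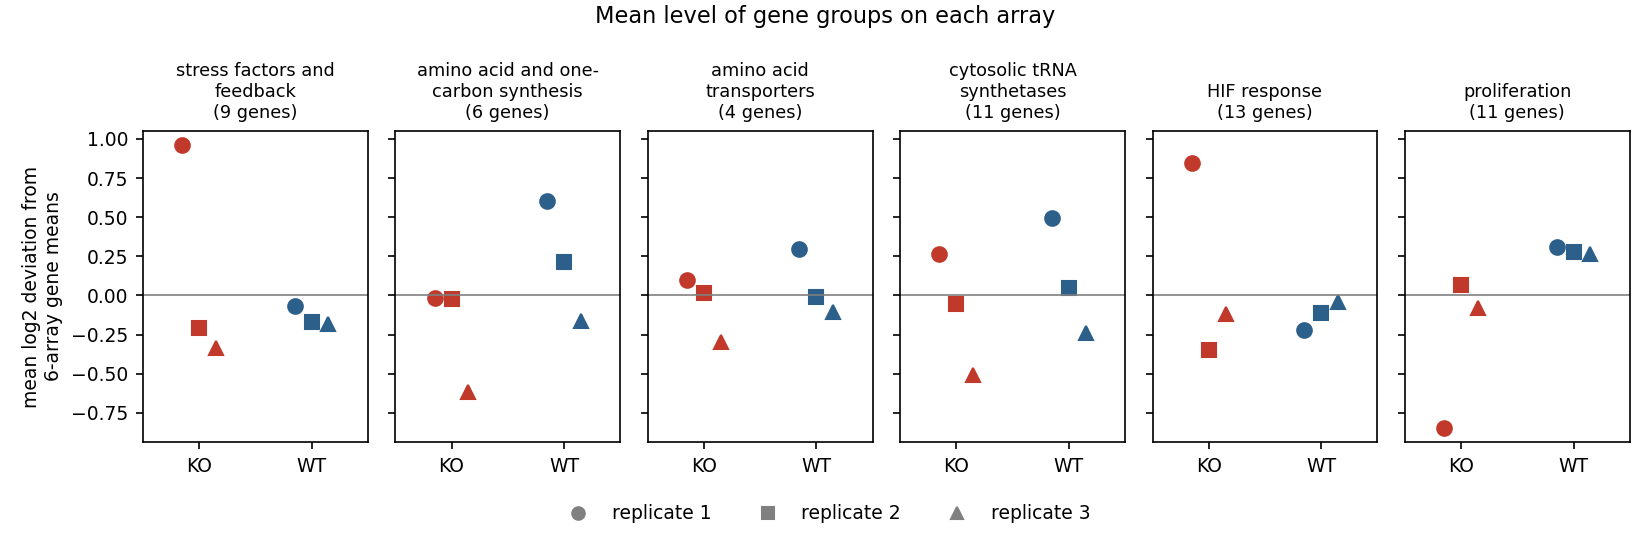
Mean log2 deviation of 6 gene groups from their 6-array gene means (vertical axis) on each array, KO in red and WT in blue, with circles, squares and triangles for replicates 1, 2 and 3. KO replicate 1 is at 0.96 for the stress group, 0.84 for the HIF response and -0.85 for proliferation.

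Xbp1, which encodes the factor that enlarges the secretory pathway, was the member with the smallest p. It measured 12.90, 12.71 and 12.78 in KO and 12.51, 12.27 and 12.55 in WT, with no overlap. The means were 12.80 ± 0.10 and 12.44 ± 0.15 (SD, n = 3), which differ by 0.36 ± 0.13 (SE), or 1.28-fold (unadjusted limma p = 0.0282, adjusted p = 0.631; exact permutation p = 0.1). It ranged from 0.27 to 0.41 with 1 array left out, and KO was higher within each sex marker state, by 0.40, 0.44 and 0.24. Of its 4 probe sets, 3 showed no overlap, at 0.36, 0.37 and 0.43, and the dimmest differed by 0.17. The arrays do not separate spliced from unspliced Xbp1. Ern1, its upstream enzyme, measured 6.10 ± 0.16 and 6.08 ± 0.21 (SD, n = 3), a difference of 0.02.

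Xbp1 is also a marker of antibody-secreting cells. Of 5 plasma cell markers 5 had a probe set, and their summed linear level ranged from 4190 to 4835 in KO and from 4060 to 4959 in WT, most of it Irf4, which activated T cells express. Jchain and Tnfrsf17, which T cells lack, were between 3.44 and 4.54 on every array, below the dimmest tested gene. Prdm1, shared with effector T cells, differed by 1.44 ± 0.38 (SE) with no overlap, measuring 8.68, 7.51 and 8.03 in KO and 6.15, 6.48 and 7.27 in WT (limma adjusted p = 0.631), and Sdc1, also on other cells, by 0.74 ± 0.33. The part of other cells in the Xbp1 values was not tested beyond these levels.

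The endoplasmic reticulum stress genes around Xbp1 did not shift together. Of 21 tested, 12 lay above WT and 9 below, the median being 0.02, and 0 passed the test. The 3 with an unadjusted limma p under 0.05 were all higher in KO without overlap. Of all genes, 3.57% were higher with such a p and 5.86% were higher without overlap, and the list was not tested as a set. Dnajb9, a co-chaperone and target of XBP1, measured 8.05, 7.64 and 7.62 in KO and 7.32, 7.40 and 7.21 in WT, a difference of 0.46 ± 0.15 (SE). Atf6, the sensor of the third arm, differed by 0.29 ± 0.10, and Syvn1, a ubiquitin ligase of the same membrane, named after its values were seen, by 0.29 ± 0.11. Sdf2l1, also named after its values were seen, differed by -0.57 ± 0.26.

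Upstream of Atf4, 9 of 13 tested genes of the eIF2 pathway were lower in KO, with a median of -0.16 and 0 past the test. Eif2ak4 encodes GCN2, the kinase that senses uncharged tRNA. It measured 7.31, 7.36 and 7.21 in KO and 7.61, 7.66 and 7.64 in WT, with no overlap, a difference of -0.35 ± 0.10 (SE; 6.92% of all genes were lower without overlap). Eif2b1, a subunit of the exchange factor that phosphorylated eIF2 blocks, differed by -0.27 ± 0.16.

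Of 22 further reported ATF4 targets tested, 13 lay above WT and 9 below, the median being 0.03, and 0 passed the test. KO replicate 1 was the highest array for 13 of the 22, and their deviation on it was 0.60, against -0.19 to 0.03 on the other arrays. Ero1a (13.56 on KO replicate 1) and Ddit4 (11.36) are also in the HIF list, so the values of the 2 lists on that array are not independent. Without it 10 were higher and the median was -0.10. The 2 with an unadjusted limma p under 0.05 showed no overlap, where 7.43% of all genes had such a p and 12.8% showed no overlap. Such a count gives no result about the list. Jdp2, a repressor of the AP-1 family, measured 10.01, 8.25 and 8.47 in KO and 7.11, 7.27 and 7.63 in WT, a difference of 1.57 ± 0.46 (SE) and 1.03 without KO replicate 1. Slc38a2, a neutral amino acid transporter induced by amino acid shortage, measured 10.95, 10.65 and 10.52 in KO and 10.34, 10.22 and 10.35 in WT. Its difference was 0.41 ± 0.14 (SE) and 0.28 without KO replicate 1.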

How the data were processed

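RNA of activated CD4 T cells was measured on 1 Affymetrix array per sample. The deposited values are log2 expression; the submitters' processing notes name RMA and affy, and no version or build was found in the labels. RMA compresses differences near background, no detection calls were used, and the number of arrays limits precision. Probe sets were named by GEO's platform annotation (20380 with 1 symbol, 691 with several, 1619 with none, counting 64 controls among the last); 0 symbols needed updating from RefSeq (GRCm38.p6). The brightest probe set was kept per gene and the dimmest 25% of genes (3098) were left out. The genotypes were tested in R 4.3.3 by limma 3.58.1 (lmFit, then eBayes, two-sided, Benjamini-Hochberg adjustment over 9295 genes, threshold 0.05); all probe sets were fitted apart. On simulated data of these genes, limma called 56.0%, 90.5% and 95.0% of 200 genes changed by 1, 2 and 3 log2 units. It also called 5, 12 and 11 genes that had not been changed. With the replicate number as a block it called 0%, 78.5% and 93.5% of the 200. Recovery with the block where same-numbered arrays share a shift was not tested. The largest member difference, that of Ddit3, was 0.71, and recovery of differences below 1 log2 unit was not tested.

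A group's deviation is its mean difference from each gene's 6-array mean. Every member was named; those without overlap, with p under 0.05, with a difference of at least 0.5 or with 1 of the 6 largest ranges, and Atf4, Ddit3, Asns and Wars, were given by array. From the other lists (eIF2 pathway, endoplasmic reticulum stress, further ATF4 targets, further, mitochondrial and scaffold synthetase genes, interferon gamma and HIF response, proliferation, cell type markers) the 2 smallest p were to be named; of the markers of other cells only summaries and the genes that define a type are given. The series text assigns each array to a separate mouse. Members and lists were chosen with earlier results of these data known. Alternatives tried were a block for replicate number, leaving out each array, median centring, further quantile normalization, other filters, the mean of probe sets, trend and robust eBayes, array weights and a threshold of 0.1; leaving out both replicate 3 arrays was added after the data were seen. The sequence of 1 promoter window is not reported here.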

Additional observations from a re-analysis of the deposited data

How the results depend on the processing

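No gene and no member passed under any alternative except array weights, which called 3575 of 9295 genes and 16 members (smallest limma adjusted p = 0.0128 among members). Those weights were 5.55 for KO replicate 3 and 5.04 for WT replicate 2 against 0.27 to 0.58 for the other arrays, so that fit rests mainly on 1 array per genotype. The 16 were Xbp1, higher in KO, and on the lower side all 6 synthesis genes, Slc7a5, Slc1a5, Aars, Gars, Iars, Lars, Nars, Tars and Yars. The labels do not say that replicate numbers pair the arrays. Same-numbered arrays shared a sex marker state, and their deviations correlated at -0.04, 0.64 and 0.40. Among the WT arrays, KO replicates 2 and 3 correlated best with their own number, but KO replicate 1 with WT replicate 3 (0.39). As the 3 values were not all above 0.1, the block was kept as an alternative. It lowered some SEs, that of Shmt2 from 0.38 to 0.12 and that of Phgdh from 0.33 to 0.20. With the replicate number as a block, 0 members passed (limma adjusted p of at least 0.478) and 6 had an unadjusted p under 0.05 (Asns, Phgdh, Psph, Shmt2, Nars and Xbp1), as had 918 of 9295 genes; that of Ppp1r15a was 0.0747. Of 32 member differences, 14 kept their sign under all 16 alternatives.

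The median of the IRE1-XBP1 pair was 0.36 with the 50% filter, which leaves Xbp1 alone, and 0.31 with array weights. Signs turned with array weights for Cebpg (-0.23), Atf5 (-0.15), Trib3 (-0.77), Chac1 (-0.27), Sesn2 (-0.054) and Vldlr (-0.16), and for Cars with further quantile normalization (0.0058), the mean of probe sets (0.051) and without both replicate 3 arrays (0.22). With 1 array left out, signs turned over these ranges: Aars -0.45 to 0.15, Atf4 -0.19 to 0.28, Cars -0.51 to 0.30, Cebpg -0.15 to 0.20, Chac1 -0.35 to 0.22, Eprs -0.39 to 0.070, Ern1 -0.089 to 0.12, Iars -0.50 to 0.036, Mthfd2 -0.29 to 0.025, Sars -0.094 to 0.32, Sesn2 -0.0093 to 0.10, Slc3a2 -0.24 to 0.39, Slc7a5 -0.52 to 0.069, Trib3 -0.56 to 1.07, Vldlr -0.54 to 0.72, Wars -0.43 to 0.21 and Yars -0.44 to 0.050. Without both replicate 3 arrays the group medians were 0.62 (stress), -0.40 (synthesis), -0.03 (transporters) and -0.16 (synthetases). Low signal limits Slc7a11 and Slc7a1.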
